A study of Mus musculus with 18 samples.

Results

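Gene expression in the cerebellum of Cck-/- mice was compared between postnatal week 5 and week 12. Members were chosen by label: the 6 libraries titled Cck-/- at week 5 (3 libraries) and at week 12 (3 libraries), out of 18 in the series. All 18 come from cerebella of FVB mice that lack Cck, the gene of the peptide hormone cholecystokinin. Of the other 12 libraries, 3 are Cck-/- at week 28 and 9 are ATXN1[30Q]D776/Cck-/- (a transgene for ataxin-1 on the same Cck-/- background) with 3 each at weeks 5, 12 and 28. The promoter and the cells that drive the transgene, the part of Cck that is deleted, and whether replicates are separate or pooled animals could not be learned from the labels, so p-values measure the spread between these libraries, which may be technical. No group carries intact Cck, so the change with age cannot be told apart from one that Cck+/+ mice would show.

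Between these ages the mouse cerebellum has finished making its granule neurons, and what goes on is the laying down and upkeep of myelin, the thickening and pruning of connections, and the settling of blood vessels and glia into their adult state. Oligodendrocytes wrap axons in myelin, a membrane rich in cholesterol and in galactolipids that the cells must make themselves, since circulating cholesterol does not cross into the brain. Cholesterol is built from acetyl units through mevalonate, squalene and lanosterol, and the enzymes of this path are switched on together by the factor SREBP2 with its partner NF-Y when cell sterol runs low.

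The unit is FPKM, mapped fragments scaled by transcript length and library size, and fold changes are differences of log2(FPKM + 1), which understates the change of low genes. Of 22783 genes, 13487 reached 1 FPKM in at least 3 of the 18 libraries and were tested with limma, and a gene was called at a Benjamini-Hochberg adjusted p under 0.05. Between week 5 and week 12, 714 genes rose (5.29% of those tested) and 881 fell (6.53%), together 11.8%. The median change was 0.27 among genes that rose and -0.33 among genes that fell on the log2 scale, beside 0.0059 over all genes. Only 8 of the genes that rose and 30 of those that fell changed more than 2-fold. The lower side held the larger changes. In 1590 of the 1595 called genes the groups do not overlap, and so in 35.3% of all genes tested. Non-overlap therefore adds little to a call. The shares of 5.29% and 6.53% are the background for each list count below.

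The 6 libraries summed to between 405839 and 423312 FPKM, and 12767 to 13007 genes reached 1 FPKM in each. Absolute depth is unknown, and the smallest steps between values place relative depth at 0.937 to 1.17. Pearson correlations of log2 levels were 0.994 to 0.996 within week 5, 0.989 to 0.994 within week 12 and 0.986 to 0.991 between the ages. Replicate 1 of each age carried Xist (66.3 and 104 FPKM) and almost no Y-linked Ddx3y, while replicates 2 and 3 carried Ddx3y at 26.4 to 28.6 FPKM, so both ages hold the same mix. Of the markers of the labelled tissue, Pcp2 of Purkinje cells lay at 684 to 817 FPKM and Gabra6 of granule neurons at 341 to 464. Hoxb5, a marker of hindbrain outside the cerebellum, stayed under 0.1. The forebrain gene Neurod6 lay at 3.13 to 4.07 FPKM. Blood and choroid plexus genes differed between the ages. Blood genes summed to 995 to 1634 FPKM at week 5 and 508 to 742 at week 12. Choroid plexus genes summed to 1706 to 2332 and 679 to 1250. In the 18-library limma fit none of the 6 blood genes tested or the 17 choroid plexus genes was called (2 and 0 at an unadjusted p under 0.05), at medians of -1.22 and -0.59. Hbb-b1, a haemoglobin chain, differed by -1.20 (adjusted p = 0.097), Alas2, of haem synthesis, by -1.14, and the choroid plexus genes Sostdc1 and Calml4 by -1.54 (adjusted p = 0.252) and -1.01. In limma on the 6 compared libraries alone all 4 were called, with adjusted p of 0.0133 for Hbb-b1, 0.0153 for Alas2, 0.00221 for Sostdc1 and 0.0344 for Calml4, and with library weights Hbb-b1 (0.00168) and Alas2 (0.00328) were.

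All 20 enzymes of cholesterol synthesis fell, against 6.53% of all genes tested. Their changes ran from -1.12 to -0.24 on the log2 scale with a median of -0.52, beside 0.0059 over all genes, and in all 20 every week 12 library lay below every week 5 library, as in 17.9% of all genes. Without 1 library at a time, 18 or 19 of the 20 were called. Because SREBP2 and NF-Y act at the promoter, the 250 bases upstream of 3 of these genes are shown from the RefSeq table (GRCm38.p6), 5′ to 3′ on the gene's strand. Capitals mark CCAAT (the NF-Y box, or ATTGG on the other strand) and, in Hmgcs1, TCACNCCAC (a sterol regulatory element). The 3 were picked for their matches or their decline and do not stand for the list. Only Hmgcs1 had the sterol element, and Mvk had the most CCAAT matches. Hmgcs1 and Dhcr7 fell most among members with a CCAAT match.
Hmgcs1, chr13:119690101-119690350, + strand: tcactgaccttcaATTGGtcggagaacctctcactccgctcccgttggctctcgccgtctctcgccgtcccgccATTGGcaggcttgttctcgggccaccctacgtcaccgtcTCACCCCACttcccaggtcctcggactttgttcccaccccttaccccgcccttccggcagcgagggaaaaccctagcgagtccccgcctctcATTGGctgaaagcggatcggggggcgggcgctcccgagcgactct
Dhcr7, chr7:143829964-143830213, + strand: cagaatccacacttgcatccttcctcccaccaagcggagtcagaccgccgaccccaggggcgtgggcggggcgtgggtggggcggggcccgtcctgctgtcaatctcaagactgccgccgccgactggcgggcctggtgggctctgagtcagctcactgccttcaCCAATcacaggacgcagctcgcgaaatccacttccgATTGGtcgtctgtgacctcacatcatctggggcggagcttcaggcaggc
Mvk, chr5:114444019-114444268, + strand: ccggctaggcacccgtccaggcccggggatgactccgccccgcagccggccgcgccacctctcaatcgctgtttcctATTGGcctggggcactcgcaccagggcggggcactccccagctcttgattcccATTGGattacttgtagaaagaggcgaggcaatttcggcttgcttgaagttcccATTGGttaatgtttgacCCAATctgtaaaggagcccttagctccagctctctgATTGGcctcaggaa
CCAAT was found on either strand in 14 of the 15 members that have a promoter in the table (93.3%), against 37.5% of all 27025 genes with a promoter there, 40.3% of those tested and 44.1% of those that fell, and 5 times in Mvk. TCACNCCAC was found in 1 of the 15 (6.67%), in Hmgcs1 at position -137 from the start site, against 1.22% of all genes, and it overlaps no CCAAT there. A match of letters is a description and not a bound site.

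Among the members named here, Hmgcs1 and Sqle had the largest declines. Hmgcs1, which makes the HMG-CoA that enters the path, measured 119, 144 and 129 FPKM at week 5 and 62.9, 66.1 and 50.7 at week 12. Hmgcs1 fell by 1.12 ± 0.12 (log2 fold change ± SE, adjusted p = 3.48e-05), and every week 12 library lay below every week 5 library. Sqle, the squalene epoxidase that is a control point of the path, went from 35.9, 38.7 and 35.3 FPKM to 18.8, 21.1 and 14.96, a change of -0.98 ± 0.11 (adjusted p = 6.62e-05). Cyp51, which trims lanosterol, went from 31.6, 36.9 and 33.3 to 18.99, 20.6 and 16.1 FPKM (-0.84 ± 0.10, adjusted p = 0.000106). The groups of these 3 genes did not overlap, and week 12 replicate 3 was the lowest library in each.

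Fdps, which makes the farnesyl diphosphate that squalene is built from, had the smallest p of the list. It measured 51.4, 54.7 and 49.6 FPKM at week 5 and 34.4, 35.7 and 33.2 at week 12 (-0.58 ± 0.05, adjusted p = 9.38e-06). Dhcr7, a sterol reductase late in the path, fell by 0.88. The mildest decline was that of Pmvk, a kinase of the mevalonate branch, from 27.9 to 30.0 FPKM down to 23.6 to 24.8 (-0.24, adjusted p = 0.00459).

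The genes that sense, take up and export cholesterol did not move as a block: of 18 tested, 3 rose, 1 fell and 14 were not called (median 0.06). Srebf2, which encodes SREBP2 itself, differed by -0.07 ± 0.06 (adjusted p = 0.496), and Scap, its escort, by 0.01. Mylip, a ubiquitin ligase that limits lipoprotein uptake, rose by 0.30 (adjusted p = 0.0111), and Nr1h3, the sterol-sensing receptor LXR alpha, rose from 3.46 to 4.28 FPKM up to 5.42 to 7.40 (0.58, adjusted p = 0.0111). Lrp1, an apolipoprotein E receptor, rose by 0.30 (adjusted p = 0.046). Leaving out 1 library brought the adjusted p of Lrp1 to 0.187 (week 12 replicate 1), of Mylip to 0.0537 (week 5 replicate 1) and of Nr1h3 to 0.0516 (week 12 replicate 3).

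Of 16 genes of fatty acid synthesis, 5 fell and none rose (median -0.09), beside 6.53% of all genes that fell. The 5 were not the core enzymes: Fasn, the fatty acid synthase, differed by -0.10 (adjusted p = 0.575) and Scd2, a desaturase, by -0.02. Those that fell include 4 elongases. Elovl1, which builds the very long chains of myelin lipids, fell from 17.1, 20.5 and 20.2 FPKM to 10.1, 9.004 and 8.47 (-0.99 ± 0.08, adjusted p = 1.12e-06). Elovl7 fell by 0.77, Elovl4 by 0.35 and Elovl6 by 0.25. Acss2, which makes acetyl-CoA from acetate, fell by 0.39 (adjusted p = 0.000515).

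**Figure D1:**
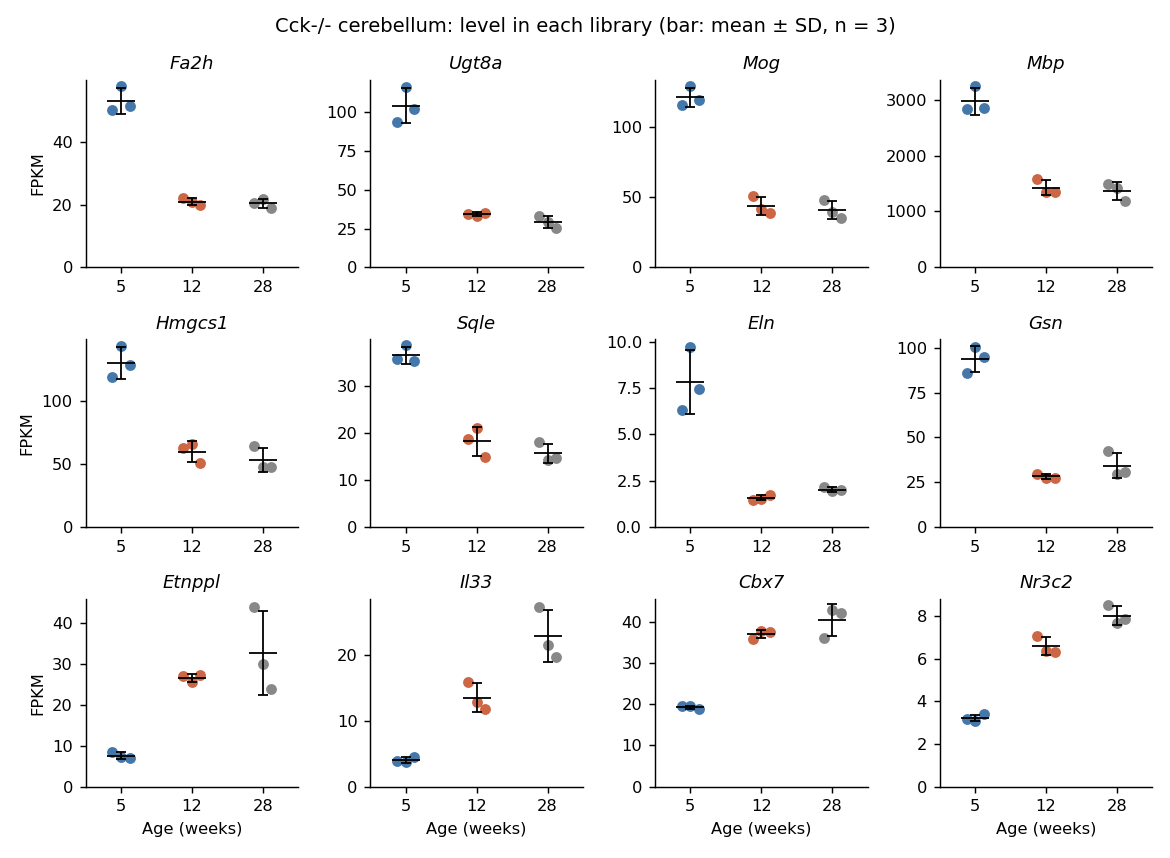
FPKM of 12 genes in each Cck-/- library at weeks 5, 12 and 28, on linear axes from 0, with bars at the mean ± SD (n = 3). All 12 are called genes, and week 5 and week 12 do not overlap in any, as in 1590 of the 1595 called genes. Fa2h lies at 50.2 to 57.9 FPKM at week 5 and 20.0 to 22.2 at week 12.

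Genes of myelin and the mature oligodendrocyte fell further than those of cholesterol synthesis: 22 of 26 fell, 1 rose and 3 were not called. Over all genes 6.53% fell and 5.29% rose. The median change of the myelin list was -0.79. In bulk tissue fewer cells of a type and less RNA per cell cannot be told apart. The 5 members with the smallest p are shown first, and 3 of them make the galactolipids of myelin. Leaving out 1 library at a time, between 16 and 22 members were called lower.

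Fa2h, which hydroxylates the fatty acids of galactolipids, measured 50.2, 57.9 and 51.3 FPKM at week 5 and 22.2, 20.7 and 20.0 at week 12 (-1.30 ± 0.07, adjusted p = 9.73e-08). Ugt8a, which adds the galactose, measured 94.1, 117 and 102 and then 34.5, 32.8 and 35.3 FPKM (-1.58 ± 0.09, adjusted p = 1.41e-07). Gal3st1, which sulphates the product, went from 15.8, 16.1 and 15.9 to 6.88, 6.57 and 7.50 FPKM (-1.08 ± 0.08, adjusted p = 1.11e-06). In all 3 enzymes the week 12 libraries sat close together, well under the lowest at week 5.

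Among the structural proteins, Mog of the outermost myelin layer went from 115, 129 and 119 FPKM to 50.4, 41.7 and 38.5 (-1.46 ± 0.11, adjusted p = 1.11e-06). Cldn11, which forms the tight junctions of myelin, went from 191, 228 and 197 to 72.2, 66.0 and 63.6 FPKM (-1.59 ± 0.13, adjusted p = 2.88e-06). Mbp, the basic protein that compacts myelin, went from 2831, 3259 and 2850 to 1579, 1353 and 1354 FPKM (-1.06 ± 0.10, adjusted p = 1.11e-05). Week 5 replicate 2 was the highest library for each of the 3. Mal, a membrane protein of myelin, fell by 1.47, the adhesion protein gene Mag by 0.92 and the phosphodiesterase gene Cnp by 0.85.

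The list did not move uniformly. Sox10 and Myrf, factors that hold oligodendrocyte identity, fell by 0.47 and 0.35, less than the list median. Ermn, a cytoskeletal protein of mature cells, differed by -0.32 (adjusted p = 0.0674), Anln by -0.06 (adjusted p = 0.722) and Hapln2, a link protein of the node of Ranvier, by -0.01 (adjusted p = 0.939). Qdpr, a pterin reductase, was the member that rose, from 113, 131 and 119 FPKM to 169, 157 and 136 (0.34 ± 0.09, adjusted p = 0.0194).

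**Figure D2:**
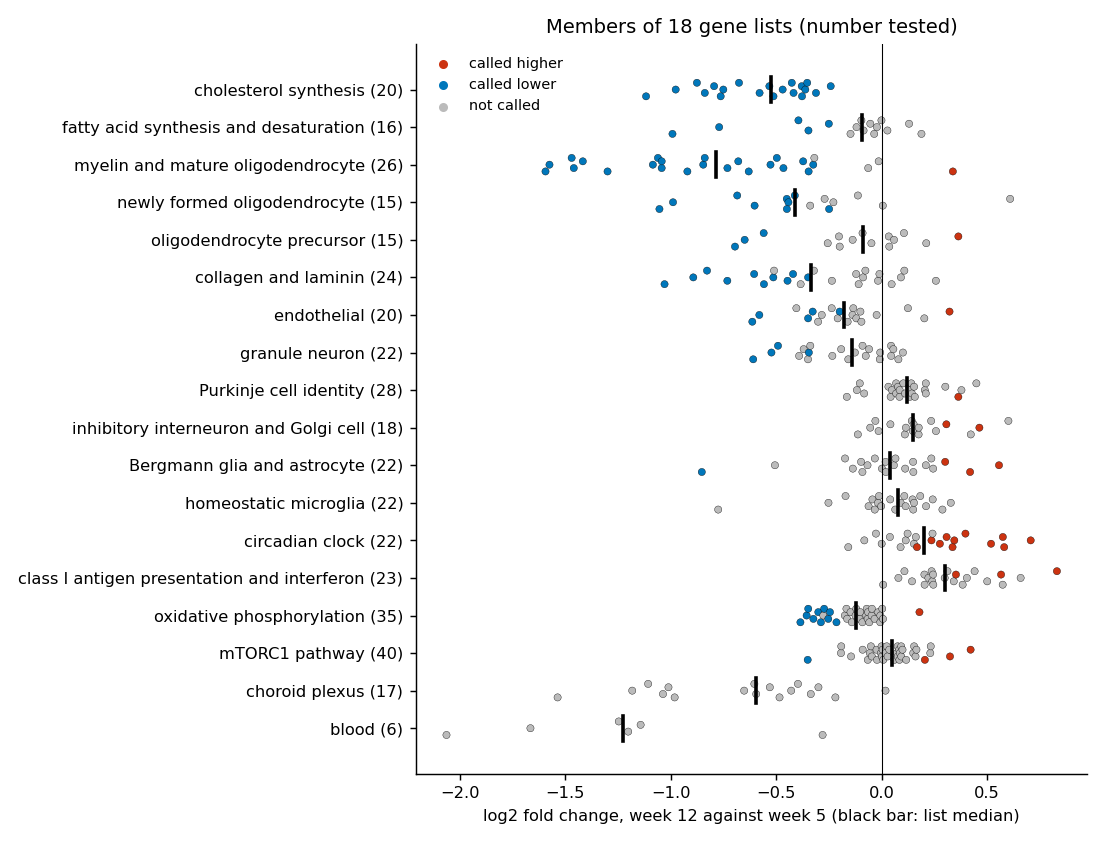
log2 fold change of every tested member of 18 gene lists in Cck-/- cerebellum, week 12 against week 5, coloured by call, with the list median as a black bar and the number tested in brackets. The members of cholesterol synthesis all lie below 0, and the median of the myelin list is -0.79.

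Earlier stages of the lineage showed a smaller decline. Of 15 genes of newly formed oligodendrocytes 9 fell and none rose (median -0.41). Gpr17, a receptor of cells about to myelinate, went from 12.4, 12.5 and 12.3 FPKM to 5.93, 4.48 and 6.07 (-1.05 ± 0.13, adjusted p = 0.000159), and Enpp6, a marker of the newest myelinating cells, changed by -0.99 (adjusted p = 0.00191). Rras2, a Ras relative, fell by 0.68, Rap2a by 0.41 and Fyn, a kinase that starts myelin protein synthesis, by 0.25.

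Of 15 genes of oligodendrocyte precursors 3 fell and 1 rose (median -0.09). The 3 that fell were Emid1 (-0.70), Olig1 (-0.65) and Olig2 (-0.56), of which the Olig factors are shared with mature cells. Pdgfra, the growth factor receptor that defines the precursor, lay at 4.72 to 5.21 FPKM at week 5 and 3.39 to 4.81 at week 12 (-0.20, adjusted p = 0.476), with overlapping groups. Xylt1, which starts proteoglycan sugar chains, was the member that rose (0.36). Without week 12 replicate 1 its adjusted p was 0.165. Among 18 tested cell cycle genes 4 rose and 1 fell. E2f1, a factor for entry into division, fell from 2.31 to 2.61 FPKM down to 0.861 to 1.18 (-0.79, adjusted p = 0.000197), while Mcm4, Mcm5, Mcm7 and Rrm1, of the replication machinery, rose by 0.20 to 0.33; without week 5 replicate 3 the adjusted p of Rrm1 was 0.0529.

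Some genes of the basement membrane and vessel wall fell. Of 24 collagen and laminin genes tested, 10 fell, none rose and 14 were not called (median -0.33), beside 6.53% of all genes that fell. The count was 4 without week 5 replicate 3, 5 without week 5 replicate 2 and 6 without week 12 replicate 1 or 2. It was 3 among those with a mean of at least 5 FPKM. Col4a1, of the collagen network that all basement membranes share, went from 7.75, 8.57 and 8.55 FPKM to 3.85, 3.32 and 3.50 (-1.03 ± 0.14, adjusted p = 0.000359). Its partner Col4a2 changed by -0.83 and Nid1, which ties collagen to laminin, by -0.89. Col5a2 fell by 0.60, and Lamc1, the shared gamma chain of laminins, by 0.51, with an adjusted p of 0.0646 without week 5 replicate 2. The laminin chains Lama2 (-0.02), Lamb1 (-0.11) and Lamb2 (0.05) were not called, and the groups of each overlapped.

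Eln, the elastin of vessel walls and meninges, lies outside that list and had a larger decline: 6.33, 9.71 and 7.46 FPKM at week 5 and 1.48, 1.53 and 1.73 at week 12 (-1.76 ± 0.14, adjusted p = 1.36e-06). Among 20 endothelial genes 5 fell, 1 rose and 14 were not called (median -0.18), beside 6.53% of all genes that fell. Kdr and Flt1, the 2 main receptors for VEGF, moved in opposite directions. Kdr, the signalling receptor, went from 4.22, 4.96 and 4.80 to 2.499, 2.91 and 2.69 FPKM (-0.61 ± 0.09, adjusted p = 0.000485), and Flt1, which binds VEGF tightly and signals little, from 5.58, 6.503 and 5.60 to 7.65, 7.28 and 7.88 FPKM (0.32 ± 0.07, adjusted p = 0.00815). Neither gene's groups overlapped. Mfsd2a, the lipid transporter of the blood-brain barrier, fell by 0.58. The junction gene Ocln (-0.20) and Itm2a (-0.33) were called as well, with adjusted p of 0.113 (without week 12 replicate 1) and 0.117 (without week 5 replicate 3). With the blood level as a covariate the change of Itm2a was -0.22 (adjusted p = 0.148). Pecam1, present in all endothelium, differed by -0.10 (adjusted p = 0.577).

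Of 17 meningeal and fibroblast genes only Col3a1 (-1.04) and Col1a1 (-0.64) were called, and both fell; without week 5 replicate 3 their adjusted p were 0.084 and 0.135. With the blood level as a covariate neither was called, with Col3a1 at -0.77 (adjusted p = 0.0788) and Col1a1 at -0.55 (adjusted p = 0.103), and in the 9 Cck-/- libraries alone the adjusted p of Col3a1 was 0.0639. In the 18-library limma fit none of 13 pericyte and smooth muscle genes was called (2 at an unadjusted p under 0.05), with Rgs5 differing by -0.52 (adjusted p = 0.0905) and Kcnj8 by -0.23. Rgs5 was called with library weights (adjusted p = 0.00269), with the replicate block (0.0373) and in the 6 libraries alone (0.0279), and Kcnj8 with weights (0.0412). The summed levels of blood and choroid plexus genes given above were also lower at week 12; with the blood level as a covariate 8 collagen and laminin genes were called lower, and with the choroid plexus level 9.

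Among the 41 lists, clock genes had the largest share of members that rose: 11 of 22, against 5.29% of all genes, with none falling (median 0.20). The clock turns on genes through the E-box CACGTG, bound by CLOCK and BMAL1, and its own repressors feed back on these sites. Those that rose include repressors and output factors. Hlf, an output factor, went from 17.3, 18.7 and 19.1 FPKM to 30.0, 26.2 and 27.4 (0.58 ± 0.06, adjusted p = 5.19e-05). Bhlhe40 and Bhlhe41, repressors that compete for the E-box, went from 17.97 to 23.6 up to 28.0 to 31.5 FPKM (0.52) and from 7.07 to 7.55 up to 9.43 to 10.96 (0.40). Per2 changed by 0.71 (adjusted p = 0.0368), with week 5 at 3.17 to 4.14 and week 12 at 5.08 to 7.95 FPKM.

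For the 2 activators no change was called. Arntl, which encodes BMAL1, lay at 21.3 to 23.2 FPKM and then 18.9 to 20.9 (-0.16 ± 0.06, adjusted p = 0.117), and Clock differed by -0.08. Nr1d2, a repressor of Arntl, rose by 0.34. Clock time at dissection is not given in the sources used here and cannot be told apart from age. The count of 11 was 7 without replicate 1 of either age and 4 without both of these libraries. The upstream sequence of Bhlhe41 is shown as the member with an E-box and the smallest p among those called; the capitals mark the E-box, which begins at position -153 on its strand.
Bhlhe41, chr6:145865421-145865670, - strand: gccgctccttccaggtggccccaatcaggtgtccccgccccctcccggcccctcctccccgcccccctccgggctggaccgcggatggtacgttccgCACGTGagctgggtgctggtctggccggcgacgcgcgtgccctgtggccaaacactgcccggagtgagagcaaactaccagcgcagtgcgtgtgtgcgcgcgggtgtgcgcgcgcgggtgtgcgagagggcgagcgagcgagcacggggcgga
CACGTG, which reads the same on both strands, was found in the 250 upstream bases of 5 of 17 clock genes with a promoter in the table (29.4%), against 6.86% of all genes, 9.89% of those tested and 12.4% of those that rose, and in 2 of 7 called members that have one (28.6%).

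**Figure D3:**
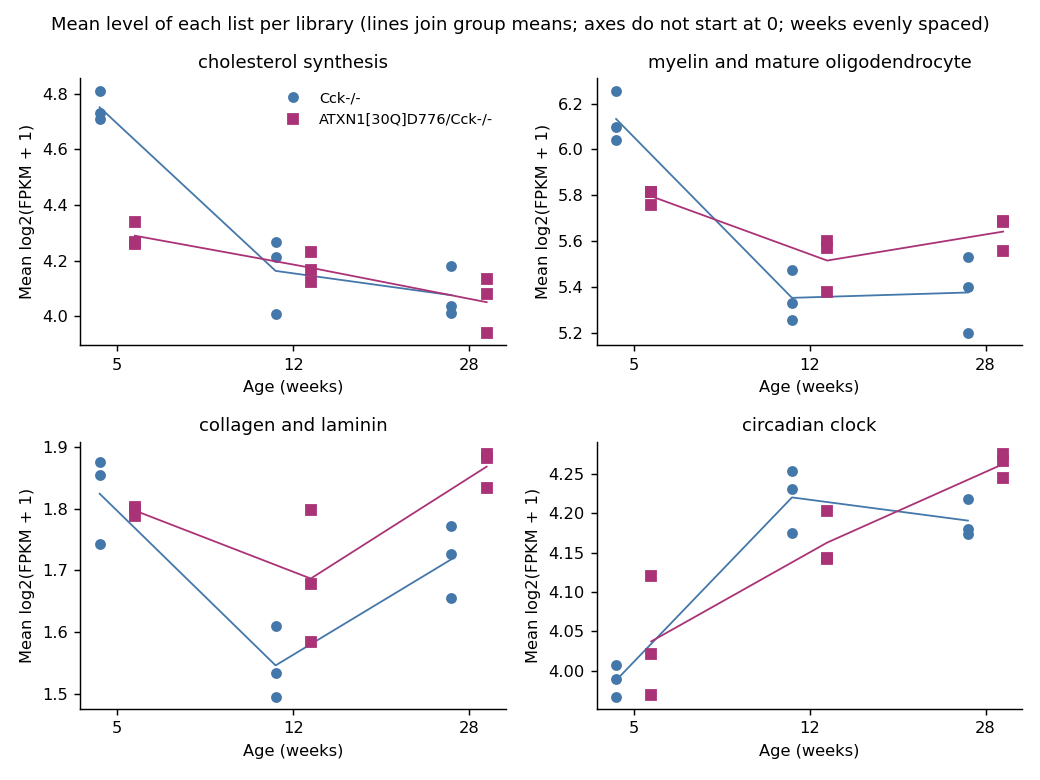
Mean log2(FPKM + 1) over the members of 4 lists in each library, for both genotypes at weeks 5, 12 and 28 evenly spaced, with lines through the group means and axes that do not start at 0. The Cck-/- week 5 libraries lie highest for cholesterol synthesis (4.71 to 4.81) and lowest for clock genes by their mean (3.99).

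Among the largest increases were 2 glial genes. Etnppl, an astrocyte enzyme that breaks down phosphoethanolamine, went from 8.55, 7.35 and 6.92 FPKM to 27.0, 25.5 and 27.4 (1.69 ± 0.23, adjusted p = 0.000281). Il33, an alarm cytokine held in the nuclei of glia, went from 3.94, 3.69 and 4.49 to 15.9, 12.9 and 11.8 FPKM (1.52 ± 0.14, adjusted p = 1.06e-05). In both, the lowest week 12 library was more than 2 times the highest at week 5. Of 22 Bergmann glia and astrocyte genes 3 rose and 1 fell (median 0.04). Fabp7, the fatty acid binding protein of immature radial glia, fell from 184, 176 and 193 to 98.6, 103 and 103 FPKM (-0.85, adjusted p = 0.00216), while Vim, a filament protein, rose by 0.56, the gap junction gene Gjb6 by 0.42 and the phosphatase Ptprz1 by 0.30. Without week 5 replicate 2 the adjusted p of Gjb6 was 0.0932, and without week 12 replicate 1 that of Ptprz1 was 0.156.

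Nuclear regulators were among the other increases. Cbx7, a Polycomb reader of histone methylation, measured 19.5, 19.5 and 18.8 FPKM at week 5 and 35.9, 37.8 and 37.5 at week 12 (0.91 ± 0.06, adjusted p = 2.1e-07). Nr3c2, the mineralocorticoid receptor, went from 3.18, 3.09 and 3.39 to 7.08, 6.36 and 6.34 FPKM (0.85 ± 0.06, adjusted p = 5.29e-07), and Jade2, a subunit of a histone acetylation complex, from 5.24 to 5.68 up to 10.3 to 10.8 (0.84, adjusted p = 5.29e-07). For all 3 genes the libraries of an age lay close together and far from the other age. Neat1, the long RNA that builds paraspeckles, rose by 0.94, the zinc finger gene Zkscan16 by 1.13, the ion pump modulator Fxyd6 by 0.96, the adhesion gene Pcdhga12 by 0.88, and Xdh, xanthine dehydrogenase, by 0.77 at levels of 0.234 to 1.27 FPKM. Pcdhga12 shares its last exons with the other gamma protocadherins, so reads can be split between them. Comp (1.20), a cartilage matrix protein, and Vipr2 (0.77), a receptor for VIP, rose too; without week 12 replicate 3 the adjusted p of Comp was 0.0903.

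**Figure D4:**
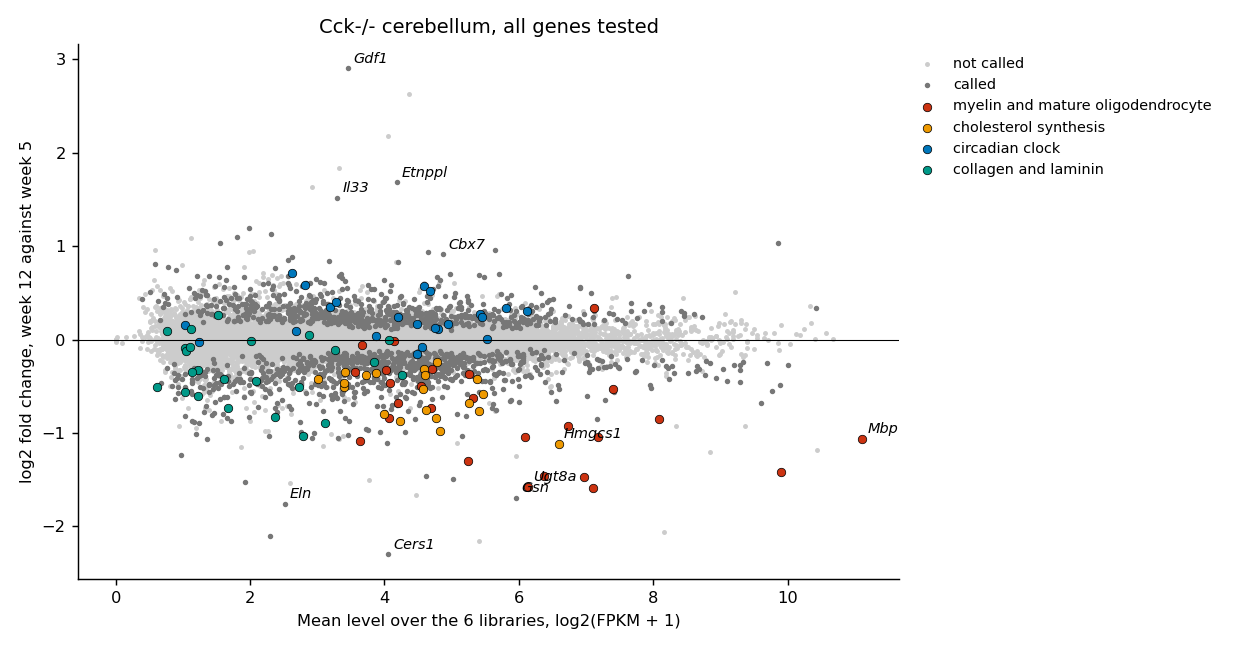
log2 fold change of each tested gene in Cck-/- cerebellum, week 12 against week 5, against its mean log2 level over the 6 libraries, with 4 lists coloured and 10 genes named. The cholesterol synthesis genes lie below 0, and the named genes Etnppl (1.69) and Il33 (1.52) lie among the largest increases.

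The top change in either direction is uncertain. Gdf1 read 1.01, 0.485 and 3.34 FPKM at week 5 and 22.7, 24.7 and 7.95 at week 12 (2.90), and Cers1 26.0, 25.6 and 21.4 and then 2.07, 1.42 and 17.1 (-2.30). The genes lie on 1 shared transcript, and their sum was 25.97 ± 1.16 FPKM at week 5 and 25.32 ± 0.72 at week 12 (SD, n = 3), and the sums of the groups overlapped. The split of the signal between Gdf1 and Cers1 differed between the ages, with week 12 replicate 3 nearest to week 5. A change in the sum was not tested. FPKM is scaled by transcript length, so the sum is not a count of reads. Defb11, a defensin of a large family with like copies, read 4.23 to 9.61 and then 0.58 to 1.12 FPKM (-2.11), and without week 5 replicate 3 its adjusted p was 0.137.

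Of the other large decreases, Gsn, the actin-severing gelsolin found in oligodendrocytes, went from 86.2, 100 and 94.8 FPKM to 29.8, 27.6 and 27.3 (-1.70 ± 0.13, adjusted p = 1.11e-06). Gamt, the last enzyme of creatine synthesis, went from 20.5, 24.02 and 19.6 to 9.75, 9.04 and 9.23 FPKM (-1.11, adjusted p = 2.88e-06). In both genes the groups lay far apart. Necab3, a calcium-binding protein, fell by 1.49, Mybpc3, named for its role in heart muscle, by 1.46, and Serpinb2, a protease inhibitor, by 1.23 at levels of 1.19 to 2.43 FPKM down to 0.0576 to 0.274.

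Neuronal lists changed less. Of 22 granule neuron genes 4 fell and none rose (median -0.14), beside 6.53% of all genes that fell. Neurod1, a factor of granule neuron differentiation, went from 278, 306 and 281 FPKM to 186, 204 and 225 (-0.49 ± 0.11, adjusted p = 0.00923). Slc17a7, the vesicular glutamate transporter of their terminals, went from 291, 313 and 281 to 188, 200 and 228 FPKM (-0.52, adjusted p = 0.0209). Car4, a carbonic anhydrase, fell by 0.61 and Nfia by 0.34. Without 1 library the adjusted p reached 0.0871 for Slc17a7 (week 12 replicate 1), 0.0799 for Car4 (week 5 replicate 1) and 0.139 for Nfia (week 12 replicate 2). Among genes of immature neurons and neurite growth 3 of 26 fell and 1 rose: Marcksl1, an actin regulator of growing neurites, fell from 45.8 to 49.0 FPKM to 20.4 to 23.6 (-1.03, adjusted p = 6.84e-05), Tmsb10 fell by 0.43 and Tuba1a by 0.32, while Tubb3 rose by 0.50 (adjusted p = 0.122 without week 12 replicate 3). Hhip, which restrains Hedgehog signals, fell by 0.61 and was the 1 call among 12 genes of granule precursors.

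Of 28 Purkinje cell identity genes only Lhx1 was called (0.36, adjusted p = 0.0444, and 0.143 without week 5 replicate 1), although 24 of the 28 had a positive change (median 0.12), as had 51.7% of all genes. Pcp2 differed by -0.10 ± 0.18 (adjusted p = 0.778). Of 18 genes of inhibitory interneurons and Golgi cells the 2 GABA-synthesising enzymes rose. Gad2 went from 27.7, 33.4 and 30.9 FPKM to 43.8, 43.7 and 40.2 (0.46 ± 0.07, adjusted p = 0.00102) and Gad1 from 202, 213 and 205 to 256, 243 and 271 (0.31, adjusted p = 0.0164, and 0.0663 without week 12 replicate 3). Neither group overlapped the other. In the 18-library limma fit none of 7 unipolar brush cell genes was called (1 at an unadjusted p under 0.05), among them Calb2 (-0.39, adjusted p = 0.165) and Eomes (0.36, adjusted p = 0.273). Calb2 was called with library weights (adjusted p = 0.00271), in the 6 libraries alone (0.0441) and with the blood level as a covariate, where its change was -0.61 (0.0235).

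Channels and receptors moved one by one. Scn1a, the sodium channel of fast-firing inhibitory cells, went from 27.4, 30.2 and 30.0 FPKM to 41.4, 36.9 and 38.1 (0.40 ± 0.06, adjusted p = 0.00047). Among 24 sodium and calcium channel genes Cacna1i rose too (0.35) and Cacnb3 fell by 0.28. Among 18 receptors for GABA and glycine 1 fell and Gabra3 rose (0.47), among 30 potassium channels Kcnc4 rose (0.27), and in the 18-library limma fit none of 17 ionotropic glutamate receptors was called (2 at an unadjusted p under 0.05), with Grik2 at -0.18 (adjusted p = 0.0772) and Grid1 at 0.19. Both were called with library weights (adjusted p = 0.00153 for Grik2 and 0.0257 for Grid1) and with the blood level as a covariate (0.0197 and 0.0481). Without 1 library the adjusted p was 0.0952 for Cacna1i (week 12 replicate 1) and 0.116 for Kcnc4 (week 5 replicate 3). Of 13 genes of the neural matrix 3 rose and 3 fell. Hapln4, a link protein of the nets around cerebellar synapses, rose from 44.4 to 48.2 FPKM up to 61.4 to 66.2 (0.45, adjusted p = 0.000766), whereas Hapln1 (-0.44), Ncan (-0.45) and Sparc (-0.42) fell; without week 5 replicate 3 the adjusted p of Ncan and Sparc was 0.118 each. With the blood level as a covariate the change of Sparc was -0.22 (adjusted p = 0.155) and that of Ncan -0.34 (adjusted p = 0.12).

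Genes that show peptides to T cells rose in part. Of 23 tested class I and interferon genes 3 rose, none fell and all 23 had a positive change (median 0.30), beside 51.7% of all genes. H2-K1, a class I heavy chain, went from 12.4, 10.6 and 13.4 FPKM to 19.2, 23.8 and 24.3 (0.83 ± 0.22, adjusted p = 0.0237), B2m, the light chain, from 94.0, 89.4 and 104 to 133, 140 and 155 (0.57, adjusted p = 0.0292), and H2-D1 from 65.6 to 65.9 up to 80.003 to 88.2 (0.35, adjusted p = 0.036). H2-Q7, outside the list, rose as well (0.81), at low levels with means of 0.0824 FPKM at week 5 and 0.909 at week 12. Of 22 tested genes with an H2 symbol 5 rose and none fell. Class I genes are near-identical copies, so their division of reads is uncertain. Each call was lost without 1 library, at an adjusted p of 0.0923 for H2-K1 and 0.101 for B2m (both week 5 replicate 2), 0.108 for H2-D1 (week 12 replicate 3) and 0.14 for H2-Q7 (week 12 replicate 2). In the 18-library limma fit none of 22 homeostatic or 14 activated microglia genes was called, and 0 in either list had an unadjusted p under 0.05; Fcrls differed by -0.77 (adjusted p = 0.24), Ctss by 0.33 (adjusted p = 0.26), Lpl by -0.17 and Gpnmb by 0.13. Fcrls was called in the 6 libraries alone (adjusted p = 0.0308), in the 9 Cck-/- libraries (0.0285) and with library weights (0.0284), and Ctss in the 6 libraries alone (0.0318). Of 13 reactive astrocyte genes H2-D1 was the 1 call.

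Of 35 genes of oxidative phosphorylation 10 fell and 1 rose (median -0.12), beside 6.53% and 5.29% of all genes. Those with the smallest p were small subunits: Ndufb9 went from 358, 368 and 342 FPKM to 257, 300 and 278 (-0.36, adjusted p = 0.00534), Ndufa1 changed by -0.35, Cox7c by -0.32 and Atp5o by -0.29, and Sdha, the enzyme shared with the citrate cycle, rose by 0.18. The count that fell depended on single libraries. It was 3 without week 12 replicate 1, 4 without week 5 replicate 1 and 3 without week 5 replicate 2. Without replicate 1 of both ages it was 0. Of 40 mTORC1 pathway genes 3 rose, a share near the 5.29% of all genes: Irs2 (0.42), Sesn3 (0.32) and Tsc1 (0.21). Tbc1d7, a partner of Tsc1, fell by 0.35. Without 1 library the adjusted p was 0.0681 for Sesn3 (week 12 replicate 1) and 0.129 for Tsc1 (week 5 replicate 1).

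Of 18 glucocorticoid response genes 3 rose (Nr3c2, Pdk4 by 0.47 and Nr3c1 by 0.17) and 2 fell. Cdkn1a, an inhibitor of the cell cycle, went from 29.9, 22.3 and 24.1 FPKM to 12.7, 11.8 and 12.2 (-0.99, adjusted p = 0.00047), and Ddit4 fell by 0.28. Of 15 imprinted growth genes H19 (-0.90) and Cdkn1c (-1.05) fell. Jun fell by 0.39 among 21 immediate early genes. Of 22 heat shock genes Dnajb4 (0.19) and Bag3 (0.62) rose, of 23 endoplasmic reticulum stress genes Ddit3 (0.28) and Dnajb9 (0.17), and of 23 neuropeptide genes the processing enzymes Pcsk2 (0.36) and Pam (0.28). Over all genes 5.29% were higher and 6.53% lower, and counts this small say little about these lists. Of 10 brainstem and cerebellar nuclei genes 2 fell, among them Nefm (-0.38), a neurofilament chain, and in the 18-library limma fit none of 5 midbrain and forebrain genes was called, with 2 at an unadjusted p under 0.05 (En1 at 0.43, Ppp1r1b at 0.23). Ppp1r1b was called with library weights (adjusted p = 0.0192), in the 6 (0.016) and 9 (0.0117) libraries and with the choroid plexus covariate (0.0128), and En1 with weights (0.0419). Without 1 library the adjusted p passed 0.05 for Nr3c1 (0.0827, week 5 replicate 3), Ddit4 (0.106, week 5 replicate 1), Jun (0.128, week 12 replicate 3), Bag3 (0.0857, week 12 replicate 3), Ddit3 (0.0755, week 5 replicate 2), Dnajb9 (0.176, week 5 replicate 1), Pam (0.109, week 5 replicate 1) and Nefm (0.187, week 5 replicate 2). By limma none of the 5 sex-linked genes was called, and 0 had an unadjusted p under 0.05.

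Cck itself was read at 25.8, 17.1 and 19.5 FPKM at week 5 and 13.8, 16.6 and 11.1 at week 12 (-0.55 ± 0.23, adjusted p = 0.14), and since the deleted part is not known this does not check the label. Of its receptors, Cckbr lay at 0.724 to 1.24 and 0.808 to 1.87 FPKM (0.23, adjusted p = 0.565), and Cckar stayed under 0.1 FPKM in all 6 libraries and was not tested. Atxn1 differed by 0.11 (adjusted p = 0.691). For none of these 3 tested genes was a change called, and the groups of Cckbr and Atxn1 overlapped.

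The same interval in ATXN1[30Q]D776/Cck-/- cerebellum, which shares no library with the Cck-/- change, gave 161 called genes (1.19%), 80 higher (0.593%) and 81 lower (0.601%). Of the 714 genes that rose in Cck-/-, 608 (85.15%) had a change in the same direction there, and of the 881 that fell 774 (87.85%), beside 62.42% of all genes tested. The median changes of these genes were 0.09 and -0.11 in the transgenic group, beside 0.27 and -0.33 in Cck-/-. Choosing genes by their Cck-/- call enlarges the Cck-/- medians, so the sizes cannot be compared between genotypes in this way. The difference between the 2 changes was called in 90 genes (0.667%), 61 of them more negative in Cck-/- (0.452%) and 29 more positive (0.215%). Of the 881 genes that fell, 52 were among them, and in all 52 the decline was larger in Cck-/-. Of the 714 genes that rose, 21 were among them, and in 19 the change was more positive in Cck-/-. Both sets were chosen by their call in Cck-/-, which by itself favours a larger change there. These counts therefore do not show which genotype changed more.

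The change was more negative in Cck-/- for all 20 cholesterol synthesis genes and passed the test of the difference in 4, among them Hmgcs1, Cyp51 and Sc5d. The median of the list was -0.13 in the transgenic group. In myelin genes 25 of 26 were more negative, beside 49.6% of all genes, and 7 passed (Mag, Mog, Cnp, Cldn11, Ugt8a, Fa2h and Gal3st1), with a transgenic median of -0.23. Most of these calls depend on a few libraries: without the 3 libraries that hold Xist together with Y-linked RNA, 0 of the 4 cholesterol and 1 of the 7 myelin differences were called (Fa2h), and without the 3 low in choroid plexus genes 1 (Sc5d) and 1 (Fa2h). With the blood level as a covariate 0 of the 4 and 5 of the 7 were called. Leaving out 1 library raised the adjusted p of the difference to 0.132 for Hmgcs1 and 0.113 for Cyp51 (both transgenic week 12 replicate 2), and to 0.0692 for Sc5d and 0.0709 for Mag (both Cck-/- week 5 replicate 2). The groups differed most in level at week 5. The mean cholesterol list level was 4.75 ± 0.05 (SD, n = 3) in Cck-/- and 4.29 ± 0.04 in the transgenic group at week 5, and 4.16 ± 0.14 and 4.17 ± 0.05 at week 12. For myelin it was 6.13 ± 0.11 and 5.80 ± 0.03 at week 5, and 5.35 ± 0.11 and 5.52 ± 0.12 at week 12. At week 5 the libraries of the groups do not overlap for either list.

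**Figure D5:**
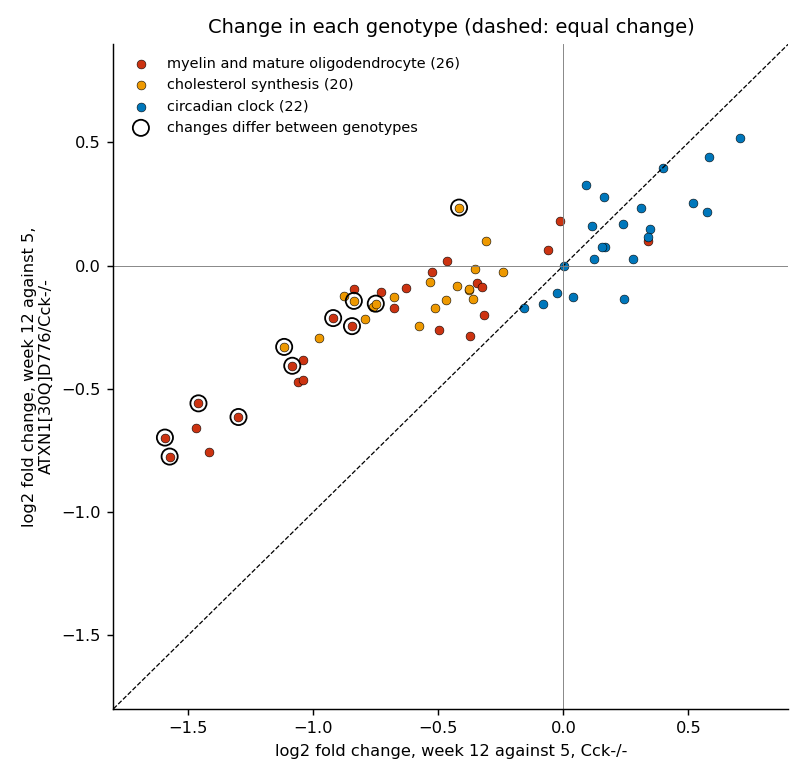
log2 fold change from week 5 to week 12 in ATXN1[30Q]D776/Cck-/- against that in Cck-/-, for members of 3 lists, with the line of equal change dashed. Circled genes passed the test of the difference, 4 in cholesterol synthesis and 7 in the myelin list.

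Single genes show the difference in level. Fa2h went from 53.1 ± 4.15 to 21.0 ± 1.14 FPKM in Cck-/- and from 37.1 ± 0.98 to 23.9 ± 1.71 in the transgenic group (SD, n = 3), a difference of -0.68 (adjusted p = 0.0041). Eln had a difference of -1.18, Gsn of -0.99 and Necab3 of -1.24, and Necab3 lay at 45.1 to 49.7 FPKM in Cck-/- at week 5 against a mean of 19.05 in the transgenic group. Serpinb2 (-1.08) and Rhbdf2 (-0.92), an inactive rhomboid protease, had the same form, and Nxpe4 (-1.07) rose by 0.88 in the transgenic group with a Cck-/- change of -0.19 (adjusted p = 0.445). Leaving out 1 library took the adjusted p of the difference to 0.0782 for Necab3 (Cck-/- week 5 replicate 3), 0.0613 for Serpinb2 and 0.128 for Cldn11 (both transgenic week 12 replicate 2), 0.0729 for Nxpe4 (Cck-/- week 12 replicate 3) and 0.0652 for Gsn (Cck-/- week 5 replicate 2).

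Of the 29 differences in the other direction, 19 were in genes that rose in Cck-/-. Most of the 8 named as largest were in genes high in the transgenic group at week 5. Cck had a mean of 98.1 FPKM there and 14.8 at week 12 (-2.65), for a difference of 2.10 from the Cck-/- change. Tuba1c (difference 2.36) went from 20.9 to 2.13 in the transgenic group and was 1.99 to 2.45 and 1.18 to 1.73 in Cck-/-, while its near-identical relative Tuba1a had a difference of -0.52. Pla2g4e (1.43), a phospholipase, Fam227b (1.10), Scg5 (1.08), a chaperone of hormone processing, Hist2h2bb (0.93) and Aaed1 (0.71) were likewise higher in the transgenic mean at week 5 than in any Cck-/- library of that age, and Zkscan16 had a difference of 0.90. Of the transgenic week 5 libraries, 2 were low in choroid plexus genes and 1 held both Xist and Y-linked RNA. Without the 3 libraries of the series with both kinds of RNA 28 differences were called, and without the 3 low in choroid plexus genes 32.

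Week 28 was read in the same genotype. That comparison uses the same week 12 libraries, so its values are given side by side with no test of agreement. In Cck-/- 543 genes were higher at week 28 than at week 12 and 758 lower (4.03% and 5.62%, together 9.65%). Of 20 cholesterol genes 3 fell further, and the median was -0.08; of 26 myelin genes none fell and 3, Trf, Hapln2 and Anln, rose. Fa2h was at 20.4 ± 1.36 FPKM, Hmgcs1 at 53.1 ± 9.55, Cbx7 at 40.3 ± 3.82 and Eln at 2.02 ± 0.12 (SD, n = 3). Il33 went on to 22.9 ± 3.94 FPKM (0.71 above week 12, adjusted p = 0.0069) and Neat1 to 62.9 (0.96, adjusted p = 0.00011). Fabp7 and Gpr17 fell further, by 0.55 and 0.56. Clock genes did not keep to 1 direction, with 4 higher and 6 lower at week 28, Cry1 at -0.67 and Dbp at 0.62 among them.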

How the data were processed

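RNA from cerebellum was sequenced in 18 libraries, 6 of them used for the main comparison. The deposited values are FPKM, which the authors computed per gene; per the submitters' processing notes the tools were TopHat2 2.0.11 and Cufflinks 2.2.1 with the mm10 build. No label names the annotation or how libraries were scaled to each other, and 36 further per-sample columns were not used. Depth per library is unknown, so no counting error could be computed.

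Values were taken to log2(FPKM + 1), and genes with at least 1 FPKM in at least 3 of 18 libraries were kept. limma 3.58.1 (R 4.3.3) with a mean-variance trend was fitted to 6 group means with 12 residual degrees of freedom, and p-values were adjusted by Benjamini-Hochberg over all 13487 genes. The script was tested on simulated data. An exact permutation test of 3 against 3 libraries cannot go below p = 0.1. The change in Cck-/- minus that in the transgenic group was tested in the same fit.

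The comparison and the 41 gene lists were chosen with earlier results of these data known, so a list's count is no independent support. Named genes are the 15 largest non-overlapping changes per direction, up to 5 members of a list by smallest p (2 where none was called), the 8 largest differences per direction, and Cck, its receptors, Atxn1 and Pcp2. Some genes that this rule picks are not reported here. Other list members named were chosen after their values were seen. Where an adjusted p without 1 library is given, it is for the library whose absence raised it most. Promoters come from the RefSeq table of GRCm38.p6. Alternatives were other pseudocounts, filters, weights, covariates, a replicate block, and libraries left out; fits without libraries of mixed sex-linked RNA, low choroid plexus RNA or Xist were chosen after seeing the data.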

Additional observations from a re-analysis of the deposited data

Results flagged for a closer look

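The change from week 5 to week 12 differed between Cck-/- and ATXN1[30Q]D776/Cck-/- in 90 genes by the interaction term in limma (adjusted p under 0.05). Values are the Cck-/- change minus the transgenic change on the log2 scale, with 3 libraries a group.

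Oligodendrocyte and myelin genes were more negative in Cck-/-: Ugt8a (-0.80), Mog (-0.90), Cldn11 (-0.90), Mag (-0.71), Fa2h (-0.68), Gal3st1 (-0.68), Cnp (-0.60), Emid1 (-0.50) and Gsn (-0.99). So were the lipid enzymes Hmgcs1 (-0.79), Cyp51 (-0.70), Sc5d (-0.65) and Elovl1 (-0.58), and Gamt (-0.80) of creatine synthesis. Of vessel genes, Eln differed by -1.18 and Kdr by -0.77, where the transgenic change was 0.15. Necab3 (-1.24), Serpinb2 (-1.08), Nxpe4 (-1.07), Rhbdf2 (-0.92) and Tuba1a (-0.52) were more negative as well.

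More positive in Cck-/- were Tuba1c (2.36), Cck (2.10), Pla2g4e (1.43), Fam227b (1.10), Scg5 (1.08), Hist2h2bb (0.93), Zkscan16 (0.90), Aaed1 (0.71), Jade2 (0.61), Nr3c2 (0.58), Irs2 (0.49), Cbx7 (0.47), Hapln4 (0.46) and Scn1a (0.40).

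The named differences were sensitive to the libraries used, though none reversed. Of 36, 16 were lost with the choroid plexus level as a covariate and 11 with the blood level. Without the 3 libraries that hold Xist together with Y-linked RNA 24 were lost, among them Mog (adjusted p = 0.124), Cldn11 (0.242), Gsn (0.142), Eln (0.0818), Hmgcs1 (0.215), Ugt8a (0.113) and Cbx7 (0.124). Without the 3 low in choroid plexus genes 23 were lost, among them Mog (0.162), Cldn11 (0.26), Gsn (0.11), Eln (0.0703), Hmgcs1 (0.228), Ugt8a (0.0703) and Cbx7 (0.208). Leaving out 1 library ended the call of 14, with an adjusted p up to 0.126 for Hapln4 and Emid1, 0.105 for Scn1a (all without transgenic week 12 replicate 2) and 0.0699 for Elovl1 (without Cck-/- week 5 replicate 3).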

How the results depend on the processing

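No result reversed. With library weights 1985 genes were called higher and 1922 lower in Cck-/- (3907 in all), 151 and 216 differed between genotypes (367), and 4244 were called between weeks 12 and 28. Without the Xist-expressing library of each age 226 and 396 were called (622), 16 and 25 differed (41), and 668 were called late. With the choroid plexus level as a covariate 15 and 25 differed (40), and 61 changed in the transgenic group. Dropping 3 libraries that hold Xist together with Y-linked RNA, the numbers were 13, 15, 28 and 44, and without the 3 low in choroid plexus genes 16, 16, 32 and 46, both chosen after seeing the data. The cause was not tested, beyond the smaller number of samples where libraries were left out. Leaving out 1 library gave 374 to 534 higher, 553 to 680 lower and 955 to 1214 in all, 16 to 33 and 25 to 62 differences (43 to 95), 68 to 144 calls in the transgenic group and 635 to 1214 late. Of 127 named week 12 against week 5 calls, 49 were lost without the Xist-expressing library of each age. Leaving out any 1 of the 6 libraries lost 26 to 31 of them. With the blood level as a covariate 20 were lost, with no filter on low values 19 and with the choroid plexus level 12. In the 9 Cck-/- libraries alone 17 were lost and in the 6 alone 7. A replicate block called 1544 genes, 1451 of them shared with the fit without it. Same-numbered libraries had correlations of deviations of 0.142, -0.0948 and -0.158, so the numbers were not taken to pair them.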

Other observations

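Some gene groups were drawn up after values were seen and are given as values only. Over all genes 5.29% rose and 6.53% fell. Of 9 genes of ketone body use 6 fell: Bdh1, which oxidises hydroxybutyrate, went from 31.0 ± 1.37 to 19.5 ± 0.87 FPKM (SD, n = 3), and Aacs and Oxct1 changed by -0.70 and -0.31. Of 13 genes of iron handling 6 fell and 2 rose. Tfrc, the transferrin receptor, changed by -0.56 and Slc40a1, the iron exporter, by -0.77, while the ferritin chains Fth1 and Ftl1 rose by 0.34 and 0.20. Of 23 Polycomb genes tested 4 rose and 6 fell, with Cbx7 at 0.91 and Pcgf5 at 0.60 against Rnf2 at -0.26. Of 22 gamma protocadherins 7 rose and none fell, but they share exons and the division of reads is uncertain.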
